A study of Mus musculus with 7 samples.

Results

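The 37 genes described here act in the DNA damage response and in the p53 pathway. They were taken by gene symbol from a table of 37620 gene identifiers, with no threshold on their values but from a list drawn up with earlier results of these data known, and were sorted by role into 12 damage sensing genes and checkpoint kinases, 4 end joining genes, 2 genes of single-strand break repair, 3 homologous repair genes, 6 genes of the p53 family and its control, and 10 p53 target genes. The libraries come from mouse oocytes that had matured to the MII stage (metaphase of meiosis II) with and without Hira, which encodes a chaperone that deposits a replication-independent histone H3 variant. The design text gives 4 oocytes per genotype, and 7 libraries were analysed here, each made from 1 oocyte. The 3 control oocytes (WT1, WT2 and WT4) had the genotype Hiraf/f, and the 4 knockout oocytes (KO1 to KO4) had the genotype Hiraf/f, Zp3-Cre. All 7 therefore carried floxed Hira alleles, and the control oocytes carried no Cre. The Zp3 promoter drives Cre in growing oocytes, so the deletion is made within the oocyte after follicle growth has begun. No treatment, strain, age or animal of origin is named.

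As background, breaks in DNA are bound by sensor complexes that recruit the kinases Atm and Atr, which pass the signal to the checkpoint kinases Chek2 and Chek1 and to p53. Double-strand breaks are then closed by joining the ends directly or by homologous repair from an intact copy, and p53 switches on genes for cell cycle arrest, stress resistance and cell death. Oocytes stop transcription before they mature, so the RNA of an MII oocyte is mostly a stored pool, and p63, a relative of p53, is known for the removal of damaged oocytes of the ovarian reserve.

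The promoter sequences shown first are those of Cdkn1a, Sesn2 and Lig4, and of the members that hold the decamer bound by p53. Cdkn1a, Sesn2 and Lig4 were chosen after their values were seen, among low and middle members whose genotypes did not overlap. Rnf8 and Trp73, which did not overlap either, are not shown, and their windows held no decamer. RefSeq (GRCm38.p6) gave 39 start sites for 32 of the 37 members, matched by symbol, and the 250 bases before each start were searched on both strands. The p53 decamer, whose consensus reads the same way on both strands, was present in 2341 of 32851 windows of that length over all genes (7.13%) and in 7 of the 39 windows of the members. The members were listed in part as p53 targets and genes of p53 control, so these shares are no test of enrichment. A pair of decamers at most 13 bases apart was present in 21 of the 32851 windows (0.0639%), and the window of the upstream Cdkn1a start was 1 of these. The windows of Cdkn1a (chr17:29090729-29090978, plus strand), Sesn2 (chr4:132510457-132510706, minus strand) and Lig4 (chr8:9976312-9976561, minus strand) follow, 5′ to 3′ on the strand of the gene and ending at the base before the start, with p53 decamers in capitals.
Cdkn1a: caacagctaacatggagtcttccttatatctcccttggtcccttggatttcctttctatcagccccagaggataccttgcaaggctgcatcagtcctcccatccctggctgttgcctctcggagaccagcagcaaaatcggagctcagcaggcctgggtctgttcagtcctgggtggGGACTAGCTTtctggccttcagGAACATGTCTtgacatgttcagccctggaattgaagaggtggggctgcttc
Sesn2: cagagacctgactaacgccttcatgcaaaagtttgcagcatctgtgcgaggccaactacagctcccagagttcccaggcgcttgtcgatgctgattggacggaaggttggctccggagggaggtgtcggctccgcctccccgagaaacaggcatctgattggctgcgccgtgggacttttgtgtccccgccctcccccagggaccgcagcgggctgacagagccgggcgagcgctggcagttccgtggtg
Lig4: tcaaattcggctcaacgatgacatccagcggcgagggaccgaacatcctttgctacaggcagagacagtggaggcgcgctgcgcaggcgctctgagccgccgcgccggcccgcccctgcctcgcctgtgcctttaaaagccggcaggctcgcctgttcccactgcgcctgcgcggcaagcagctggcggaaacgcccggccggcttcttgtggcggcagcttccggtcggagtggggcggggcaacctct
The Cdkn1a decamers lie 73 to 64 and 51 to 42 bases before the start. No decamer was found in the Sesn2 window or in that of either Lig4 start, and the second Cdkn1a start, downstream of the first, had none. These windows differ in makeup: the Cdkn1a window is 54.0% G or C and holds neither GGGCGG nor CCAAT on either strand, whereas the Lig4 window is 68.4% G or C with 2 copies of GGGCGG, and the Sesn2 window is 63.2% G or C with 1 copy of GGGCGG and 2 of CCAAT. Over all genes, 32.7% of windows hold GGGCGG and 33.8% hold CCAAT. The other 6 members with a p53 decamer are shown as 30 bases around it, to let the decamers be compared.
Ccng1: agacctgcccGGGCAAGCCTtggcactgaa
Gadd45a: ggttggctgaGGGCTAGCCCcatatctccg
Mdm2: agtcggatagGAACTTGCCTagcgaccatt
Ppm1d: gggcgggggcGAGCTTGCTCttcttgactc
Sesn1: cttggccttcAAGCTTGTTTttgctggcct
Trp53: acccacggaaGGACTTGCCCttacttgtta
The decamers lie 185 to 176 bases before the start in Ccng1, 40 to 31 in Gadd45a, 186 to 177 in Mdm2, 132 to 123 in Ppm1d, 173 to 164 in Sesn1 and 75 to 66 in Trp53. A match is a description of the letters and not a site of binding.

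Values are FPKM (fragments scaled to the length of the gene and the depth of the library) as the authors deposited them, given in the order WT1, WT2, WT4 and KO1 to KO4. They are relative to the other RNA of the same oocyte. Each genotype holds single oocytes of unnamed animals and counts as 1 sample, so no test was made, and a mean ± SD gives only the spread between single oocytes (n = 3 control and n = 4 knockout). Differences are knockout minus control means of log2(FPKM + 1), a scale that understates the change of low genes. Reads in genes ran from 15340782 to 25940519 per library, and 6959 to 7286 genes reached an FPKM of 1 in the control oocytes against 7664 to 8222 in the knockout oocytes. A filter kept the 8033 genes that reached an FPKM of 1 in 3 or more libraries, and these had a median difference of 0.18, and scaling the libraries by the median ratio moved that to -0.01. Differences are therefore also given on that scale or after quantile normalization where the side of 1.5-fold or the sign changes.

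The deleted gene was low throughout. Hira stood at 0.312, 0.347 and 0.291 FPKM in the control oocytes (42, 55 and 35 reads) and at 0.0941, 0.0955, 0.0242 and 0.0997 FPKM in the knockout oocytes (12, 15, 5 and 17 reads). The knockout mean was 24.7% of the control mean (0.0784 ± 0.0362 against 0.317 ± 0.028 FPKM), and the genotypes did not overlap. Of its sequence, 43.1% is shared with Gm28539, with which reads could be exchanged. All 15 oocyte markers were above the filter in these libraries, and their summed FPKM was 16397 to 17483 in the control oocytes and 10308 to 12721 in the knockout oocytes. The largest part of that sum was Dppa3 (9676 ± 285 against 5718 ± 1020 FPKM). Of the 15 markers, 6 had a positive difference, against 63.8% of all genes, and their median difference was -0.25. Among 20 markers of cumulus and granulosa cells, 17 averaged an FPKM under 1 in both genotypes and 8 were at 0 in every library, among them Lhcgr, Foxl2, Amh and Amhr2. Their summed FPKM was 23.7 to 25.9 against 32.9 to 36.7, most of it Cyp19a1 (22 ± 1.78 against 24.6 ± 3.77 FPKM). Of the other markers above the filter, Nr5a2 went from 2.53 ± 0.994 to 7.25 ± 0.904 FPKM, and Fshr was at 0 in the 3 control oocytes and at 0, 2.99, 4.34 and 4.51 FPKM in the knockout oocytes. Dcn, of the theca and stroma markers, was lower in every knockout oocyte (1.37 ± 0.381 against 0.342 ± 0.372 FPKM), and the part of such cells in the results was not tested.

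Of the 37 members, 26 passed the filter, 8 had reads but stayed below it, and Gadd45g, Bbc3 and Phlda3 were at 0 in every library. Among the 26, the difference was over 1.5-fold higher in the knockout oocytes for Atm, Topbp1, Mdc1, Rnf8 and Lig4, which is 5 genes or 19.2%, against 22.6% of all 8033 genes. Atm and Mdc1 are in that count only because their knockout values carried them past the filter. They had 0 and 1 control oocytes at an FPKM of 1. The share over all genes holds such genes too. No member was over 1.5-fold lower, against 7.92% of all genes. Every knockout oocyte was above every control oocyte for 2 members, Lig4 and Rnf8 (18.9% of all genes), and below for 2, Chek1 and Mdm4 (8.94% of all genes). The members' median difference was 0.19, next to the 0.18 of all genes, and the counts of members past the fold were close to or under the background. Median-ratio scaling left 2 members higher (Mdc1 and Lig4) and 2 lower (Xrcc6 and Mdm4), and it changed the split over all genes from 1814 higher and 636 lower to 1192 and 1128. Quantile normalization left 2 members higher and 1 lower, against 1155 and 1018 of all 8033 genes. A single oocyte also moved the counts. Without WT1, 8 members were higher (Topbp1, Mdc1, Rnf8, Lig4, Parp1, Mdm2, Ppm1d and Ccng1), 2 were lower (Xrcc6 and Mdm4) and 14 did not overlap in place of 4. Without WT2, 3 were higher, and without KO1, 9 did not overlap. No share of all genes is given for these subsets, and fewer oocytes make non-overlap easier for any gene. Without WT1 the median difference rose to 0.23 over all genes and 0.25 over the members. Lig4 alone stayed past 1.5-fold in all 14 alternatives tried.

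**Figure D1:**
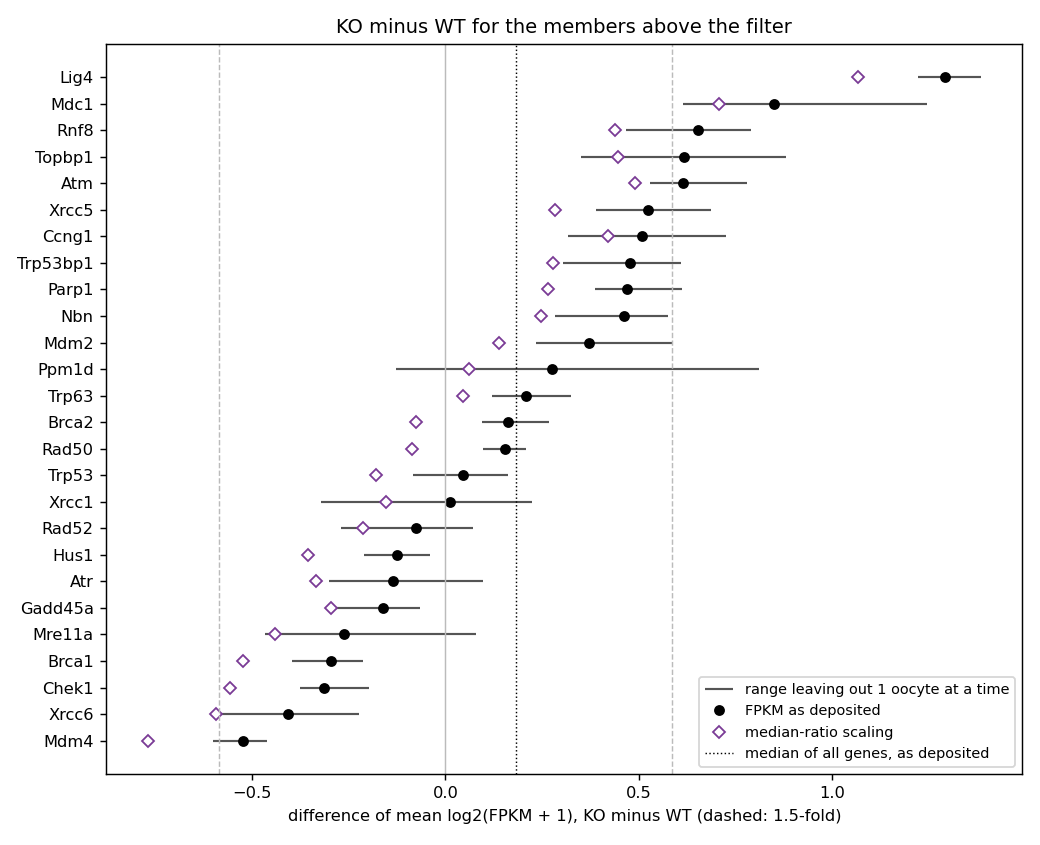
Difference of each member above the filter, knockout minus control mean of log2(FPKM + 1), in log2 units. Filled points are FPKM as deposited, open diamonds are median-ratio scaling, horizontal lines are the range when each oocyte is left out in turn, dashed lines mark 1.5-fold and the dotted line is the median of all genes; Lig4 lies farthest to the right at 1.29 and Mdm4 farthest to the left at -0.52 as deposited.

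Among the damage sensing genes, 11 of 12 passed the filter and 4 of these (Atm, Topbp1, Mdc1 and Rnf8) were over 1.5-fold higher, with none lower. That count stands against 22.6% of all genes, and against 24.6% to 27.5% of those whose mean FPKM is below 10, where these 4 lie. It includes Atm and Mdc1, which passed the filter only through the knockout oocytes, with 0 and 1 control oocytes at an FPKM of 1. Under median-ratio scaling or quantile normalization Mdc1 alone of the 4 stayed past 1.5-fold. The summed reads of all 12, which are mostly Chek1, Rad50 and Hus1, overlapped between the genotypes, at 2753 to 3113 RPM (reads scaled to all reads in genes of the library) in the control oocytes and 2602 to 2795 in the knockout oocytes. Mdc1, the adaptor that reads the phosphorylated histone at a break, was at 2.8, 0.585 and 0.757 FPKM in the control oocytes and 3.09, 2.76, 2.57 and 3.47 FPKM in the knockout oocytes. WT1 lay inside the knockout range, while WT2 and WT4 lay below it, so the difference of 0.85 rests on those libraries. Mdc1 kept to 0.71 under median-ratio scaling and 0.62 after quantile normalization, past 1.5-fold on both scales.

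Rnf8, the ubiquitin ligase that Mdc1 recruits, was at 7.21, 4.26 and 6.27 FPKM in the control oocytes and 9.71, 10.2, 9.28 and 9.56 FPKM in the knockout oocytes. The 4 knockout oocytes were close together, with a coefficient of variation of 3.98% against 25.5% in the controls, and all lay above the controls. Its difference was 0.65, or 0.44 under median-ratio scaling and 0.44 after quantile normalization, neither past 1.5-fold, and 0.47 without WT2. Of its sequence, 17.0% is shared with Gm28043. Topbp1, the activator of Atr, was at 3.35, 1.09 and 2.03 FPKM against 3.87, 4.66, 3.03 and 3.14 FPKM. WT1 overlapped the knockout range here as for Mdc1, and the difference of 0.62 was 0.45 and 0.37 on the median-ratio and quantile scales and 0.35 without WT2.

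Atm, the kinase that answers double-strand breaks, was at 0.321, 0.648 and 0.5 FPKM in the control oocytes and 1.44, 1.57, 0.611 and 1.62 FPKM in the knockout oocytes. No control library reached an FPKM of 1, so Atm passed the filter only through the knockout oocytes, and KO3 lay inside the control range. Its difference was 0.61 and lost the 1.5-fold mark without WT1, KO1, KO2 or KO4, with values down to 0.53, and it was 0.49 under median-ratio scaling and 0.39 after quantile normalization. Atr, the kinase that answers single-stranded DNA, was at 7.85, 4.1 and 4.86 FPKM against 3.42, 5.68, 4.21 and 6.61 FPKM, with overlapping genotypes and a difference of -0.13 that was 0.10 without WT1.

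Chek1, the kinase downstream of Atr, was by far the most abundant of the damage sensing genes, at rank 203 of 8033 by mean FPKM. It stood at 178, 228 and 181 FPKM in the control oocytes and 165, 148, 159 and 155 FPKM in the knockout oocytes. All 4 knockout oocytes lay below the lowest control oocyte, with means of 157 ± 7.46 and 196 ± 28 FPKM. The difference of -0.31 did not reach 1.5-fold, and it was -0.56 under median-ratio scaling and -0.19 after quantile normalization. Among the 362 genes with a mean FPKM of at least 100, which include Chek1 and Mdm4, 17.1% were over 1.5-fold lower and 4.97% higher, so lower values were commoner at this level than over all genes. Chek2, the kinase downstream of Atm, stayed below the filter, with 9, 0 and 48 reads in the control oocytes and 0, 57, 5 and 22 reads in the knockout oocytes. Each genotype had an oocyte without a read and an oocyte with 48 reads or more.

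The 3 subunits of the complex that binds broken ends differed in level. Rad50, its ATPase, was at 50.9, 48.1 and 54.6 FPKM in the control oocytes and 50.8, 55.1, 58.5 and 64.5 FPKM in the knockout oocytes. Nbn, the subunit that recruits Atm, was at 4.08, 6.31 and 6.41 FPKM against 7.22, 8.46, 10.7 and 6.09 FPKM. Mre11a, the nuclease, was lowest of the 3 at 2.13, 2.43 and 5.66 FPKM against 1.58, 3.56, 1.94 and 3.17 FPKM. All 3 overlapped between the genotypes, with differences of 0.15 for Rad50, 0.46 for Nbn and -0.26 for Mre11a. The sign for Rad50 turned under median-ratio scaling (-0.09). Hus1, a subunit of the clamp that helps activate Atr, varied little, at 19.9, 17.6 and 15.5 FPKM against 18.3, 15.6, 14.8 and 15.6 FPKM. Trp53bp1, which shields broken ends from resection, was at 3.64, 2.88 and 4.2 FPKM against 5.2, 4.92, 3.8 and 8.04 FPKM, where KO3 overlapped the controls and KO4 was the highest. Its difference was 0.48, and 14.4% of its sequence is shared with Tubgcp4.

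**Figure D2:**
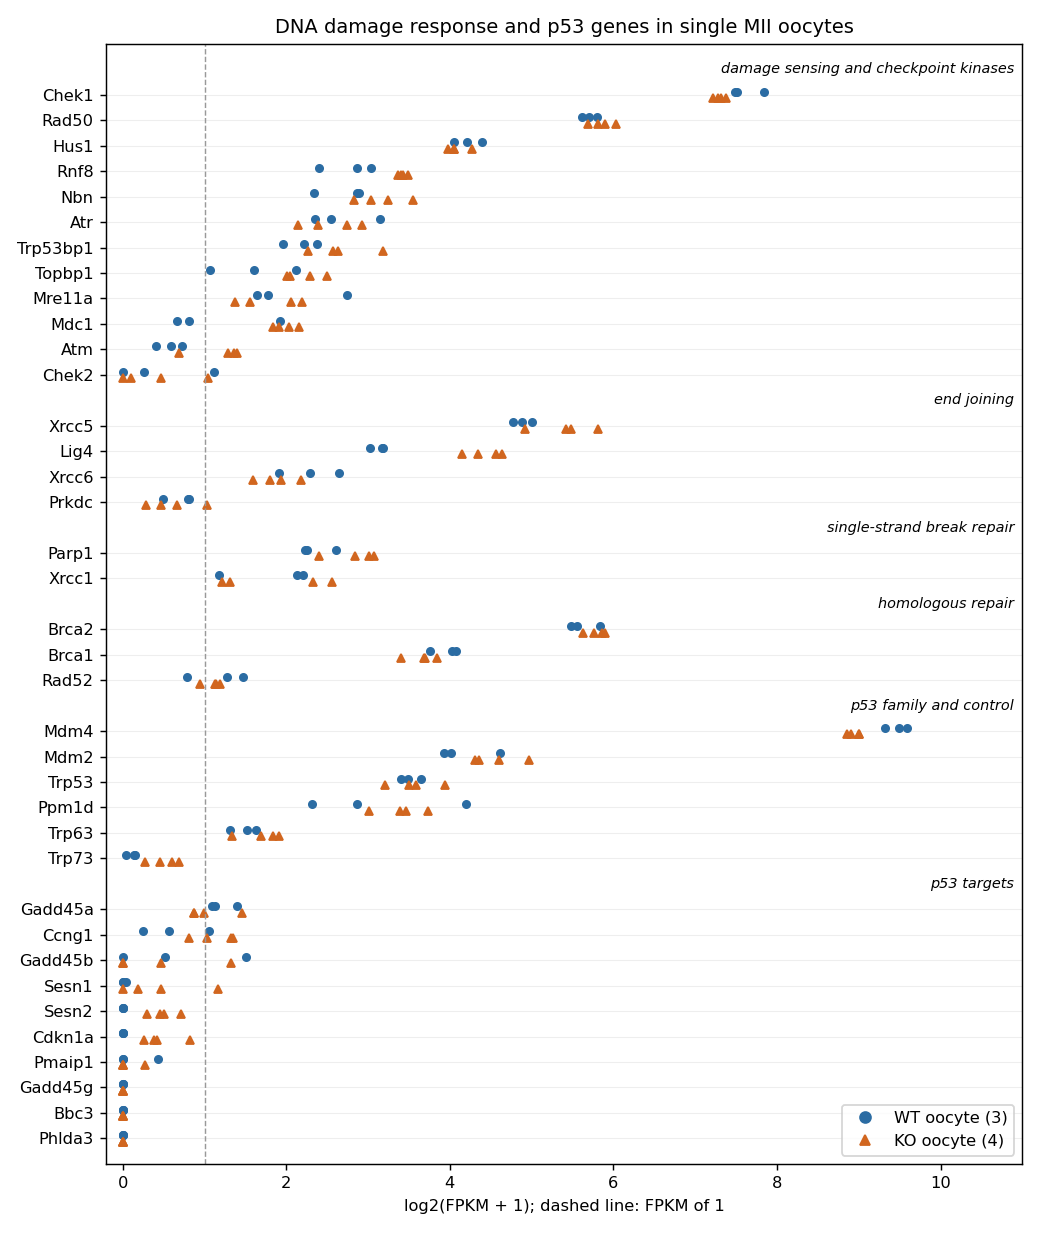
Values of all 37 members in each of the 7 oocytes as log2(FPKM + 1), by role, with 1 circle per control oocyte, 1 triangle per knockout oocyte and a dashed line at an FPKM of 1. The Lig4 and Rnf8 points of the knockout oocytes lie above those of the controls while those of Chek1 and Mdm4 lie below.

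The largest difference of any member above the filter was in end joining. Lig4, the ligase that seals the ends, was at 8.09, 7.14 and 8.01 FPKM in the control oocytes and 23.8, 19.2, 16.7 and 22.6 FPKM in the knockout oocytes. The controls were close together and the lowest knockout oocyte, KO3, was above all of them. The means were 7.75 ± 0.525 and 20.6 ± 3.23 FPKM, a difference of 1.29 as deposited, 1.07 under median-ratio scaling and 1.12 after quantile normalization. Leaving out each oocyte in turn kept it between 1.22 and 1.38. Among the 1551 genes with a mean FPKM of 10 to 30, where Lig4 lies, 19.6% were over 1.5-fold higher.

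The other end joining genes were not past 1.5-fold as deposited. Xrcc5, the larger subunit of the Ku ring that holds the ends, was at 28.4, 31 and 26.3 FPKM against 29.2, 55, 43.6 and 41.9 FPKM, so KO1 lay inside the control range and the other 3 knockout oocytes above it. Its partner Xrcc6 was at 2.74, 3.9 and 5.24 FPKM against 2.02, 3.52, 2.47 and 2.81 FPKM. The difference was 0.52 for Xrcc5 and -0.41 for Xrcc6, and Xrcc6 passed 1.5-fold lower under median-ratio scaling (-0.59) and quantile normalization (-0.67) while its genotypes overlapped. Prkdc, the kinase that Ku recruits, stayed below the filter at 0.74, 0.407 and 0.746 FPKM against 0.216, 0.378, 1.05 and 0.583 FPKM, with the knockout oocytes KO1 and KO3 at the lowest and highest values of all. Summed over the 4 genes, the level was 186 to 200 RPM in the control oocytes and 314 to 369 in the knockout oocytes, with no overlap. Lig4 and Xrcc5 supply most of that sum.

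Single-strand break repair was represented by Parp1, the sensor that marks nicks with poly(ADP-ribose), and Xrcc1, the scaffold of the repair enzymes. Parp1 was at 5.11, 3.77 and 3.7 FPKM in the control oocytes and 4.29, 7.08, 6.15 and 7.44 FPKM in the knockout oocytes, and WT1 lay above KO1. Xrcc1 was at 3.62, 1.26 and 3.39 FPKM against 1.32, 4.89, 4.01 and 1.47 FPKM, with low and high oocytes in both genotypes. The differences were 0.47 for Parp1 and 0.01 for Xrcc1, neither past 1.5-fold. The sign for Xrcc1 turned under median-ratio scaling (-0.15) and quantile normalization (-0.23), and that of Parp1 did not, but Parp1 passed 1.5-fold without WT1 or KO1 (up to 0.61).

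None of the 3 homologous repair genes was past 1.5-fold, and all overlapped. Brca2, a mediator of strand exchange with the intact copy, was at 55.9, 45.8 and 43.8 FPKM in the control oocytes and 58.6, 57, 48.4 and 53.1 FPKM in the knockout oocytes. Brca1, which promotes resection and recruits Brca2, was at 12.5, 15.3 and 15.8 FPKM against 9.57, 11.9, 11.8 and 13.3 FPKM, so that 3 knockout oocytes lay below the lowest control and KO4 among the controls. Rad52, an annealing protein, was low at 0.729, 1.41 and 1.78 FPKM against 1.2, 0.922, 1.28 and 1.19 FPKM. The differences were 0.16 for Brca2, -0.30 for Brca1 and -0.08 for Rad52, and the sign for Brca2 turned under median-ratio scaling (-0.08).

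Within the p53 family, Trp53 and Trp63 overlapped between the genotypes. Trp53 was at 9.6, 11.5 and 10.2 FPKM in the control oocytes and 8.22, 10.3, 11 and 14.4 FPKM in the knockout oocytes, with a difference of 0.04 as deposited and -0.18 and -0.14 under median-ratio scaling and quantile normalization. Of its sequence, 10.2% is shared with the pseudogene Trp53-ps. Trp63, the family member known from resting oocytes, was at 1.87, 1.48 and 2.08 FPKM against 1.53, 2.76, 2.56 and 2.22 FPKM, a difference of 0.21 that was -0.06 after quantile normalization.

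Trp73, the remaining member of the family, stayed below the filter but did not overlap between the genotypes. It had 22, 24 and 5 reads in the control oocytes and 120, 89, 67 and 135 reads in the knockout oocytes, or 0.107, 0.0988 and 0.0272 FPKM against 0.614, 0.37, 0.212 and 0.517 FPKM. The ratio of the mean FPKM was 5.52, and every knockout oocyte was above every control oocyte at a level where no library reached an FPKM of 1. No share of all genes is given for non-overlap below the filter.

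Mdm4, the relative of Mdm2 that binds and restrains p53, was the most abundant member, at rank 59 of 8033 genes. It stood at 636, 771 and 718 FPKM in the control oocytes and 462, 478, 511 and 513 FPKM in the knockout oocytes. All knockout oocytes lay below all controls, with means of 491 ± 25 against 708 ± 67.8 FPKM. The difference was -0.52 as deposited, -0.77 under median-ratio scaling and -0.18 after quantile normalization, so its side of 1.5-fold depended on the scaling and its sign did not. It shares 13.8% of its sequence with other genes, the largest part with the pseudogene Mdm4-ps. With Mdm4 as most of the sum, the summed reads of the p53 family and its control were 3852 to 4527 RPM in the control oocytes and 3065 to 3215 in the knockout oocytes, with no overlap.

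Mdm2, the ubiquitin ligase that degrades p53 and is itself a p53 target, was at 23.5, 15.2 and 14.2 FPKM in the control oocytes and 30.3, 23.2, 19.4 and 18.8 FPKM in the knockout oocytes. KO1 was the highest and WT1 lay above 3 of the 4 knockout oocytes. Ppm1d, a phosphatase that switches off p53 and the damage kinases, was at 17.3, 6.27 and 3.98 FPKM against 9.5, 12.3, 10.03 and 7.07 FPKM. The differences were 0.37 for Mdm2 and 0.28 for Ppm1d, and leaving out single oocytes moved that of Ppm1d between -0.13 (without WT4) and 0.81 (without WT1, the highest library of all).

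**Figure D3:**
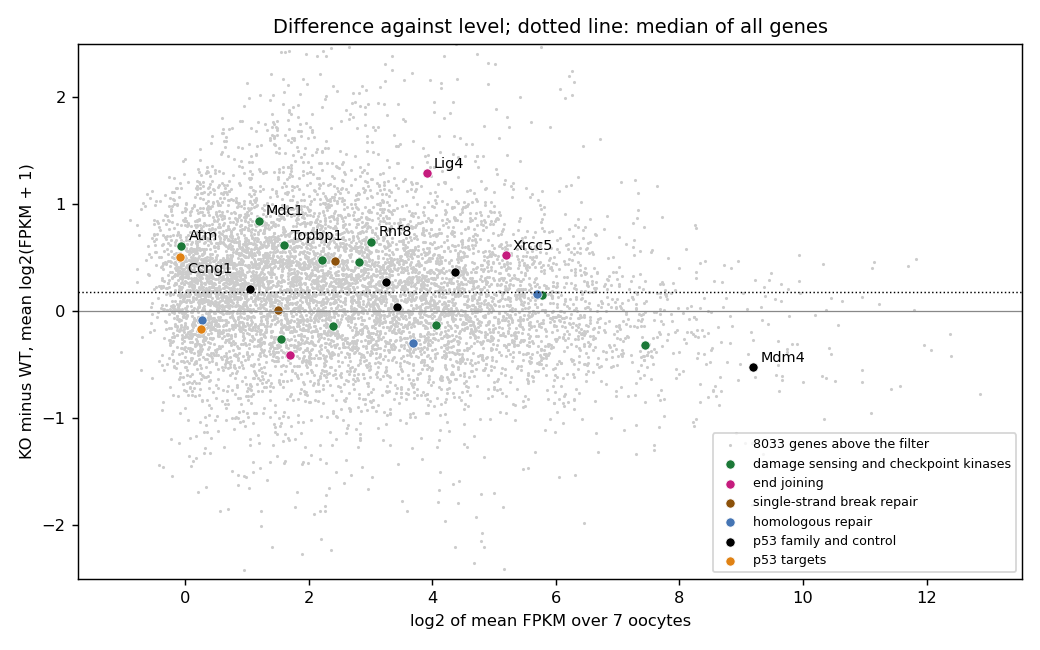
Knockout minus control difference of log2(FPKM + 1) against log2 mean FPKM for the 8033 genes above the filter, with the 26 members in colour; 29 genes beyond 2.5 on the vertical axis are outside the plot. Chek1 and Mdm4 sit at the abundant end below 0, and Lig4 sits above the other members.

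The p53 targets were the lowest group. Of 10, only Ccng1 and Gadd45a passed the filter, 5 had reads below it and 3 had none in any library, so the count of each library is the better measure here. Cdkn1a, the cyclin-dependent kinase inhibitor p21, had 0, 0 and 0 reads in the control oocytes and 12, 25, 74 and 24 reads in the knockout oocytes, or 0.202, 0.342, 0.77 and 0.302 FPKM in KO1 to KO4. Sesn2, a sestrin that lowers growth signalling under stress, had 0, 0 and 0 reads in the control oocytes and 43, 31, 25 and 38 reads in the knockout oocytes, or 0.641, 0.375, 0.23 and 0.423 FPKM. Both genes were thus at 0 in every control oocyte and above 0 in every knockout oocyte, although no library reached an FPKM of 1.

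For a ratio, the 0 control reads were set to a floor of 3 reads over the control group. The summed knockout level was then 28.6 times the floor for Cdkn1a and 29.0 times for Sesn2. Oocytes of a genotype varied by far more than counting error, so these ratios are no lower limit on the fold. The ratio depends on single oocytes: KO3 held 74 of the 135 Cdkn1a reads, and without it the ratio was 18.8. Leaving out each oocyte in turn gave ratios of 17.7 to 32.2 for Cdkn1a and 18.0 to 34.4 for Sesn2, the lowest without WT2 in both cases. Of the 34 members with reads in any library, these 2 had that pattern, against 151 of 18300 genes (0.825%). Genes of every level are among the 18300, so that share is not one for genes as low as these 2. No member was at 0 in all knockout oocytes and above 0 in all controls, a pattern of 0.175% of the genes. Cdkn1a shares 9.78% of its sequence with other genes, the largest part with AC167363.2. The intervals on single counts cover counting error only: KO1, with 12 reads of Cdkn1a, was at 0.755 RPM with an exact 95% Poisson interval of 0.390 to 1.32, and WT2, with 0 reads, had an interval up to 0.184 RPM.

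The other targets gave no such division. Sesn1, another sestrin, had 1, 0 and 0 reads in the control oocytes and 0, 49, 20 and 6 reads in the knockout oocytes, so KO1 was without a read and KO2 held most of them. Ccng1, or cyclin G1, was at 1.08, 0.183 and 0.484 FPKM against 1.51, 0.759, 1.54 and 1.05 FPKM, a difference of 0.51 with WT1 inside the knockout range. Gadd45a, a stress-induced growth arrest gene, was at 1.19, 1.63 and 1.14 FPKM against 1.74, 0.996, 0.83 and 0.822 FPKM, a difference of -0.16 with KO1 the highest of all oocytes. It shares 17.0% of its sequence with other genes, the largest part with E230016M11Rik. Gadd45b had 0, 56 and 10 reads in the control oocytes and 37, 0, 15 and 0 reads in the knockout oocytes. Pmaip1, the cell death gene also called Noxa, had reads in WT2 (22 reads) and KO3 (17 reads) only, and Bbc3, the cell death gene also called Puma, had none in any library.

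Summed over the 10 targets, the level came to 8.02 to 11.9 RPM in the control oocytes and 12.1 to 21.4 in the knockout oocytes, from 3, 4 and 3 targets with a read against 5, 5, 7 and 5. The nearest libraries, WT2 at 11.9 and KO4 at 12.1, had overlapping Poisson intervals (10.4 to 13.5 and 10.7 to 13.7), and the summed FPKM overlapped (2.05 to 4.00 against 2.74 to 5.61). The count of genes detected was also higher in the knockout libraries over the whole table, as given above, and its part in these values was not tested.

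**Figure D4:**
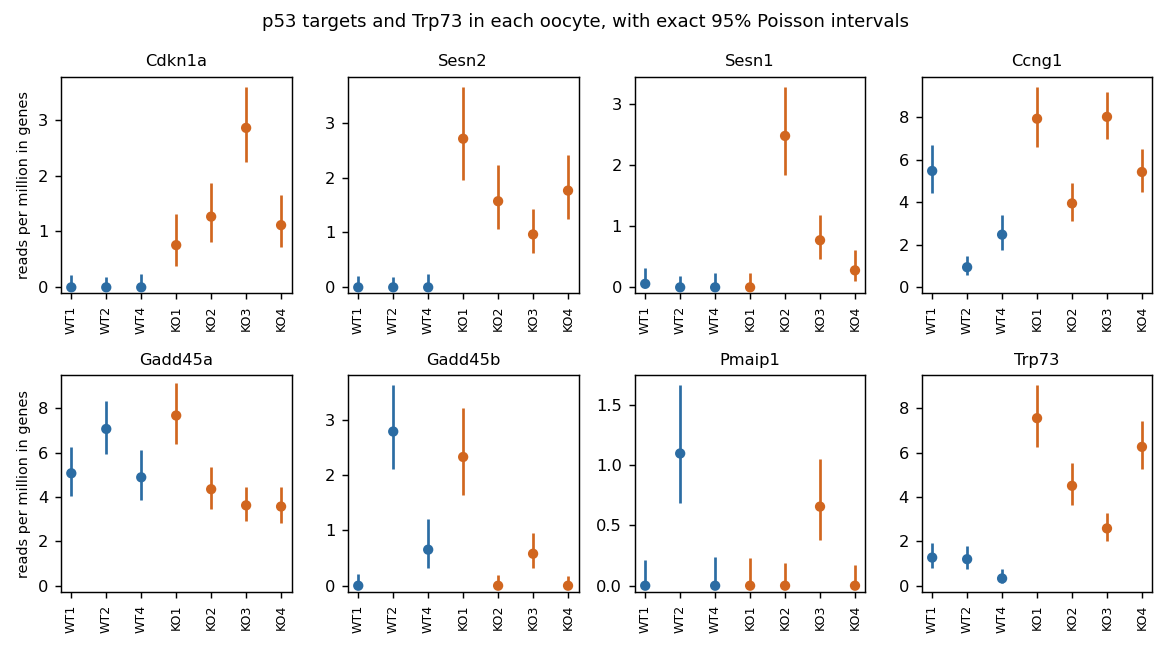
Levels in RPM for the 7 p53 targets with a read and for Trp73, in each of the 7 oocytes, with vertical lines for exact 95% Poisson intervals that cover counting error only. Cdkn1a and Sesn2 are at 0 in the 3 control oocytes and above 0 in the 4 knockout oocytes, and Trp73 lies higher in each knockout oocyte than in any control.

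The members varied between oocytes of a genotype about as much as other genes. The median coefficient of variation of the 26 members was 22% in the control and 22.8% in the knockout oocytes, against 28.7% and 23.8% over all 8033 genes. The steadiest members were the abundant ones in the knockout oocytes, Chek1 at 4.77% and Mdm4 at 5.09%, together with Rnf8. Mdc1, Ccng1 and Ppm1d spread most in the controls, at 89.2%, 78.4% and 77.7%, each with WT1 as the highest control oocyte.

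A further 153 genes of the same pathways, sorted into 7 lists, put the members in their setting. Of these, 100 passed the filter, 17 were higher and 4 lower by more than 1.5-fold, against 22.6% and 7.92% of all genes. Their median difference was 0.11. Under median-ratio scaling 11 were higher and 12 lower, against 1192 and 1128 of all 8033 genes. Quantile normalization gave 7 higher and 12 lower, against 1155 and 1018 of all 8033 genes. Without WT1 31 were higher and 5 lower, where the median of all genes also rose, to 0.23. The genes named from these lists are the 2 with the largest difference in each, and any others are named after their values were seen.

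Of 20 other checkpoint genes, 16 passed the filter and 4 were higher, with none lower, against 22.6% and 7.92% of all genes. Median-ratio scaling gave 3 higher and 1 lower, against 1192 and 1128 of all 8033 genes. Quantile normalization gave 1 and 1, against 1155 and 1018. Wee1, the kinase that holds back mitotic entry, was at 0.708, 0 and 0.0283 FPKM in the control oocytes and 2.64, 2.75, 1.96 and 0.937 FPKM in the knockout oocytes. Cdc25a, the phosphatase that opposes it, was at 3.12, 1.34 and 2.07 FPKM against 5.03, 4.72, 3.65 and 4.62 FPKM. Both were higher in every knockout oocyte, with differences of 1.30 for Wee1 and 0.82 for Cdc25a, the latter 0.57 and under 1.5-fold after quantile normalization. Wee1 reached an FPKM of 1 in no control oocyte and so passed the filter only through the knockout oocytes. The other two were H2afx and Etaa1.

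Of 13 other end joining genes, 7 passed the filter, and Polm and Paxip1 were higher, against 22.6% of all genes. Polm, a polymerase that fills gaps at joined ends, was at 3.89, 1.6 and 2.83 FPKM against 7.17, 6.61, 4.74 and 6.97 FPKM. Paxip1, a partner of Trp53bp1, was at 6.91, 4.26 and 4.05 FPKM against 9.18, 10.02, 9.96 and 8.4 FPKM. Neither gene overlapped between the genotypes, and the differences were 1.00 for Polm and 0.80 for Paxip1, while the list's median was -0.14 and 3 of the 7 had a positive difference.

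Differences were mostly negative in homologous repair. Of 24 other genes of that pathway, 19 passed the filter and 5 of these (26.3%) had a positive difference, against 63.8% of all genes, with a median of -0.20 against 0.18 over all genes. Only Mms22l, a factor of stalled forks, was over 1.5-fold higher (3.12 ± 1.72 against 5.82 ± 0.651 FPKM, difference 0.80, or 0.57 after quantile normalization and 0.54 without WT2), and only Fignl1, an ATPase, was over 1.5-fold lower (22.1 ± 4.28 against 14 ± 3.22 FPKM, difference -0.63, up to -0.52 with an oocyte left out). Both overlapped between the genotypes, and median-ratio scaling put 5 of the 19 over 1.5-fold lower. The summed FPKM of the list was 318 to 338 in the control oocytes and 263 to 286 in the knockout oocytes. Of 14 Fanconi anaemia genes, which act on crosslinked DNA, 9 passed the filter and none was past 1.5-fold as deposited. The farthest from 0 were Fancg (0.44) and Fancb (-0.42), both with overlapping genotypes, and Fancb was past 1.5-fold lower under median-ratio scaling (-0.61) and quantile normalization (-0.65).

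Among 32 genes of base excision, nucleotide excision and mismatch repair, 24 passed the filter. Of these, 3 were higher (Xpa, Rad23b and Ddb1) and 3 lower (Neil3, Nthl1 and Pms1), against 22.6% and 7.92% of all genes. Median-ratio scaling gave 1 higher and 4 lower. Neil3, a glycosylase that removes oxidised bases, was at 121, 152 and 110.4 FPKM in the control oocytes and 46, 48.1, 36.5 and 42.8 FPKM in the knockout oocytes. The knockout mean of 43.3 ± 5.06 FPKM was 33.9% of the control mean of 128 ± 21.7 FPKM, and the difference of -1.53 was -1.77 and -1.51 on the median-ratio and quantile scales. Xpa, a core factor of nucleotide excision repair, was at 0.523, 0.507 and 0.439 FPKM against 1.93, 3.25, 2 and 1.86 FPKM, with every knockout oocyte higher and a difference of 1.11, but it too passed the filter only through the knockout oocytes. Neil3 was thus a repair gene with a larger difference than any of the 26 members above the filter.

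Of 30 other p53 targets, 11 passed the filter, 3 were higher (Ccng2, Sesn3 and Dusp14) and none lower, against 22.6% and 7.92% of all genes. Ccng2, or cyclin G2, was at 2.59, 1.65 and 1.91 FPKM against 4.78, 6.05, 3.52 and 4.09 FPKM, with no overlap and a difference of 0.87. Sesn3, the third sestrin, was at 3.56, 0.693 and 3.43 FPKM against 4.6, 5.01, 2.66 and 3.63 FPKM, with overlap. Its difference of 0.59 only just passed, and was 0.42 under median-ratio scaling, 0.35 after quantile normalization and 0.12 without WT2. Under median-ratio scaling 1 gene of the list was higher. The list's median was 0.24 as deposited, 0.09 under median-ratio scaling and 0.18 after quantile normalization. Above 0 were 10 of 11 differences as deposited (63.8% of all genes) and 8 of 11 under median-ratio scaling (49.5% of all genes). After quantile normalization 6 of 11 were above 0, near the 50.1% of all genes. The list's summed FPKM was 137 to 154 in the control oocytes and 175 to 197 in the knockout oocytes. Of 20 genes that modify p53 or Mdm2, 14 passed the filter and 4 were higher (Sirt1, Prmt5, Rbbp6 and Hipk2), against 22.6% of all genes. Median-ratio scaling left 3, against 1192 of all 8033 genes, and quantile normalization 2, against 1155. Sirt1, a deacetylase that acts on p53 among many proteins, was at 3.26, 2.3 and 0.746 FPKM against 5.83, 10.1, 8.96 and 13 FPKM. All knockout oocytes were above all controls, with a difference of 1.80 that was 1.61 and 1.57 on the other scales. Prmt5, an arginine methyltransferase, was at 0.63, 0.282 and 1.82 FPKM against 1.36, 4.36, 2.11 and 2.32 FPKM, with overlap. It reached an FPKM of 1 in 1 control oocyte and so passed the filter through the knockout oocytes.

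**Figure D5:**
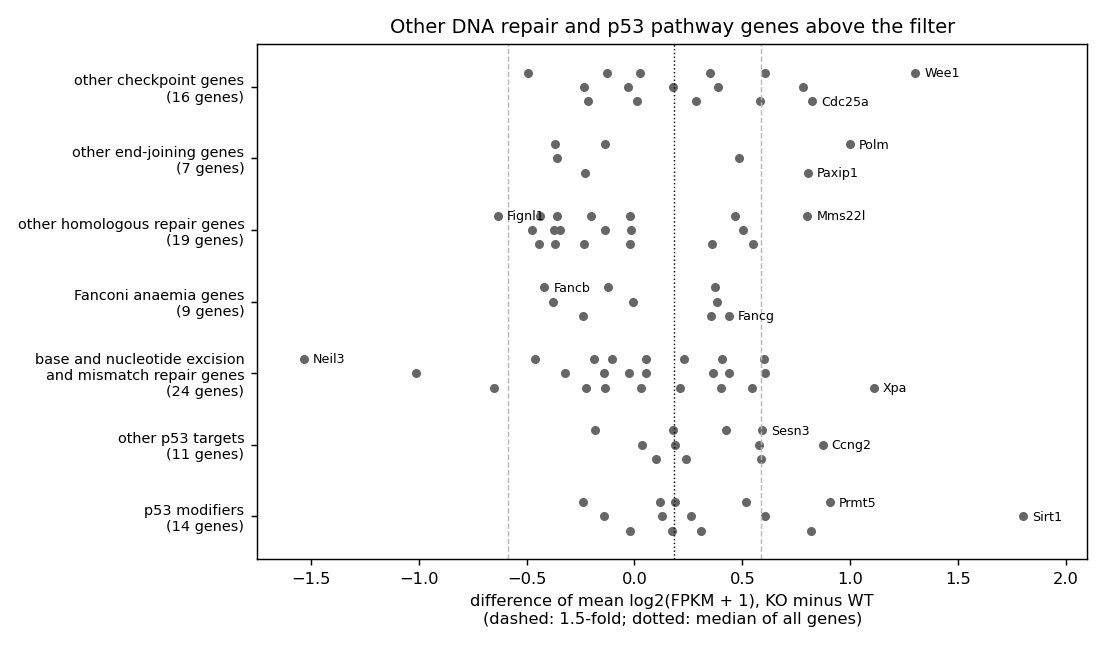
Knockout minus control difference of log2(FPKM + 1) for the genes above the filter in each of the 7 other lists, 1 point per gene, with dashed lines at 1.5-fold and a dotted line at the median of all genes. Sirt1 and Neil3 are the farthest points, at 1.80 and -1.53, and 14 of the 19 points of the homologous repair list lie at or below 0.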

How the data were processed

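Single MII oocytes were lysed and their cDNA made and amplified with an ultra-low-input kit, per the labels' protocols. The values are FPKM that the authors deposited, 1 per Ensembl gene and oocyte. The submitters' processing notes name, without their roles, the mm9 build, edgeR 3.1.10, HTSeq, Bowtie2, Bowtie 0.12.8, TopHat and TopHat2 2.0.2. No coordinates of the files' genes are printed, since the reference here is on a later build; the promoter windows carry RefSeq's own GRCm38.p6 coordinates. It gave symbols for 87.4% of 37620 identifiers, of which 18300 had a value in any library. The spike-in RNA that the labels name was not used here.

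Members were matched by symbol (Mre11a also as Mre11). They and the other lists were chosen with earlier results of these data known. All 37 members are named, and of each other list the 2 genes above the filter with the largest difference. The filter was an FPKM of 1 or more in 3 or more libraries and the pseudocount was 1. Other pseudocounts, filters, scalings and omitted oocytes were tried as alternatives. The ratios to the floor without each oocyte were added after the data were seen.

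Reads were recovered from the steps between FPKM values, as the smallest whole numbers that fit within 0.01, for all 18300 genes. For 2437 genes seen in 1 library the number is not determined. The gene lengths that go with these reads were set against those of the reference. The shorter of the 2 was within 20% of the longer for only 43.3% of 9860 genes. For members the ratio to the reference ran from 0.271 (Mdm4) to 1.81 (Gadd45a), so counts, intervals and floors hold up to a factor per gene. Intervals cover counting error only, as amplified cDNA without molecular identifiers does not count molecules. Pairs of oocytes of 1 genotype gave a chi-square of 48.0 to 97.9 per gene, far above counting error. The 12 commonly used genes examined, such as Actb, were above 0 in every library. Shared sequence was taken from identical 31-base stretches in the reference transcripts of all other genes, and the gene named with it holds the largest part. Python 3.11.15, numpy 2.4.6, pandas 2.3.3, scipy 1.17.1 and matplotlib 3.10.9 were used, and the recovery of reads was tested on simulated data.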

Additional observations from a re-analysis of the deposited data

Results flagged for a closer look

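Pmaip1 in KO3 stood at 0.205 FPKM (17 reads), while the other 3 knockout oocytes were at 0. It was singled out because its gap to the nearest oocyte spans the whole range of its group. It was 1 of 34 members with reads examined in the 4 knockout oocytes. With 3 values at 0, any read in the remaining oocyte gives this outcome, so it shows detection in KO3 and no more.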

How the results depend on the processing

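The count of members over 1.5-fold higher was 5, and became 1 with a pseudocount of 5, 1 of 11 members with a minimum FPKM of 10, 2 under median-ratio scaling and 2 after quantile normalization. It ranged from 3 (without WT2) to 8 (without WT1) when each oocyte was left out. The count of members over 1.5-fold lower was 0, and became 2 under median-ratio scaling, 1 after quantile normalization and 0 to 2 with an oocyte left out (2 without WT1). Of all 8033 genes, 1192 were higher and 1128 lower under median-ratio scaling, and 1155 and 1018 after quantile normalization. The count of members whose genotypes did not overlap was 4, and became 7 of 34 members with no filter and 4 to 14 with an oocyte left out. The members added with no filter were Trp73, Cdkn1a and Sesn2. Fewer oocytes make non-overlap easier for any gene. No share of all genes is given for the subsets with an oocyte left out or for the set with no filter. The median difference of the members was 0.19, and became -0.0157 under median-ratio scaling, where that of all genes was -0.01. After quantile normalization it was 0.0998, against 0.0017 over all genes. With no filter it was 0.185, against 0.0527 over all genes. The stricter filter tests fewer genes and leaving out an oocyte leaves fewer samples; for the other changes the cause was not tested. No called result reversed, and the 5 members called higher kept their sign in every alternative that tested them, 14 for Lig4 and 13 for Atm, Topbp1, Mdc1 and Rnf8, which the minimum FPKM of 10 leaves out. No paired analysis was possible because the results come from no test and the numbers of the oocytes mark no shared animal, batch or day. Values of low genes such as Cdkn1a and Sesn2 are limited by counts of 12 to 74 reads per knockout oocyte.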
